A study of Sus scrofa with 46 samples.

Results

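MBL2, MASP1, MASP2, COLEC10, COLEC11 and COLEC12 encode recognition molecules and proteases around the lectin pathway of complement, and their liver RNA levels are described here in newborn piglets. The members were taken by gene symbol, and all 6 were found among the 18440 genes of the table. The lectin pathway is a branch of innate immunity that needs no antibody. Collagen-like lectins in plasma bind sugars on microbes, and serine proteases travelling with them then cleave C4 and C2, which leads to the cleavage of C3 and to the membrane attack complex. The liver makes most of the mannose-binding lectin and much of the complement in plasma, and in a newborn these proteins act before the piglet makes many antibodies of its own.

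Liver RNA of 46 piglets was sequenced 72 hours after birth. The groups were 11 normal-sized piglets without treatment, 12 normal-sized piglets given an energy treatment, 10 piglets with intrauterine growth restriction (IUGR) without treatment and 13 IUGR piglets given the energy treatment. The treatment was a commercial oral energy paste that holds colostrum, fatty acids and vitamins. IUGR was graded by eye from the shape of the head with the eyes, mouth and hair. All piglets came from Danish Landrace × Danish Yorkshire sows mated to Duroc boars and went from their mother to a nurse sow, so untreated piglets were suckled too. Piglets of both sizes and both treatments were chosen within a sow, but the labels give neither litter nor sampling week nor sex, and littermates were treated as separate samples.

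The total count was 15036565 to 19340207 per library (median 15902507), and levels are given in CPM, which are counts brought to a common library total after TMM scaling. At these depths 3 counts stand for 0.151 to 0.221 CPM. ALB, the albumin gene that defines hepatocytes, averaged 94900 CPM. The libraries of pig 38 (IUGR, untreated) and of pigs 39 and 46 (IUGR, treated) stood apart. Over all genes each correlated with the rest at a median r of 0.765 to 0.843, where the other 43 reached 0.953 to 0.966. The main results of the members that rest on them are therefore given with and without them. Group differences of genes other than the members are given with all 46 libraries only. Each group stands in its own block of columns with pig numbers sorted as text, and it is in doubt whether each heading stands over its own column. Genes that the study took up from its untreated comparison were read under these headings. The study reported PDK4 and CEL as higher and CXCL12, SDF2L1 and ENHO as lower in IUGR piglets. It also measured PDK4, CEL and SDF2L1 by qPCR and reported each as significantly regulated. The log2 fold change of IUGR against normal-sized untreated piglets was 0.33 for PDK4, 1.22 for CEL, 0.06 for CXCL12, -0.12 for SDF2L1 and 0.62 for ENHO, with adjusted p of 0.331 to 0.929 in edgeR's quasi-likelihood test. CXCL12 and ENHO thus did not have the reported direction, and none of these genes reached an adjusted p under 0.05. The group differences given here depend on correct headings, while levels, spread and correlations over all livers do not depend on them.

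MBL2 (gene ID 397230) encodes mannose-binding lectin C, which binds mannose and similar sugars and carries the proteases to the microbe. Its position in Sscrofa11.1 is chromosome 14, 97103926 to 97107635. In normal-sized untreated piglets the level was 3.09 CPM in pig 3, 15.6 in pig 9, 9.69 in pig 14, 12.9 in pig 20, 12.6 in pig 30, 6.9 in pig 34, 1.69 in pig 42, 1.18 in pig 48, 8.97 in pig 52, 10.1 in pig 55 and 11.2 in pig 61. In IUGR untreated piglets it was 6.65 CPM in pig 5, 6.55 in pig 10, 0.908 in pig 12, 4.89 in pig 17, 1.37 in pig 21, 3.14 in pig 26, 1.9 in pig 27, 1.86 in pig 36, 1.98 in pig 38 and 1.35 in pig 43. The groups overlapped, and 8 of the 11 normal-sized piglets lay above the highest IUGR piglet while pigs 3, 42 and 48 lay among the IUGR piglets.

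In normal-sized treated piglets MBL2 was at 32.3 CPM in pig 1, 4.16 in pig 4, 18.4 in pig 7, 2.79 in pig 22, 13.1 in pig 31, 8.89 in pig 32, 19.4 in pig 44, 5.2 in pig 45, 0.689 in pig 50, 6.56 in pig 64, 1.58 in pig 66 and 15.5 in pig 68. In IUGR treated piglets it was at 0.253 CPM in pig 11, 0.812 in pig 18, 3.63 in pig 25, 0.619 in pig 29, 15.1 in pig 33, 3.61 in pig 39, 3.6 in pig 46, 5.58 in pig 47, 3.42 in pig 49, 15.4 in pig 53, 3.04 in pig 58, 3.36 in pig 59 and 2.31 in pig 65. These groups overlapped over most of their range, and pigs 33 and 53 stood well above the other IUGR treated piglets. Over all livers, 17 of 23 normal-sized and 6 of 23 IUGR piglets were above the overall median of 3.9 CPM.

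**Figure D1:**
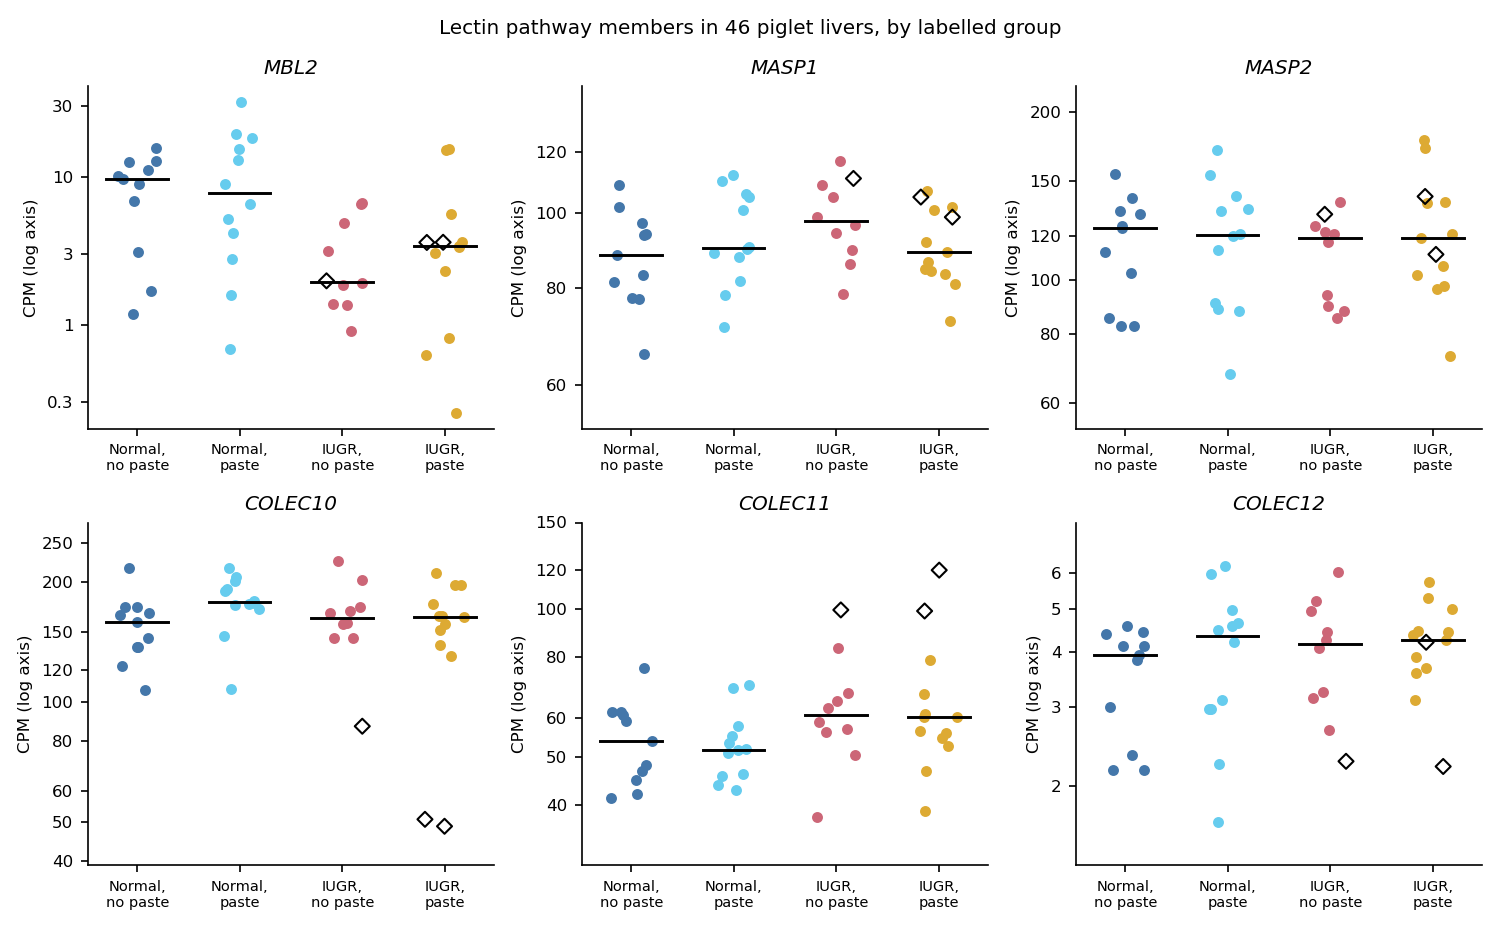
Level of each of the 6 genes in every liver, in CPM on a log axis, by labelled group (line: group median; open diamonds: pigs 38, 39 and 46). MBL2 runs from 0.253 to 32.3 CPM, while the diamonds lie below every other liver in COLEC10 and above every other liver in COLEC11.

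MBL2 varied far more between livers than most genes. The counts behind it ran from 4 to 507, and the highest liver was 128 times the lowest. The mean level of MBL2 was above that of 28.6% of the genes tested. Its SD on the log2 scale was 1.48 over 46 livers, larger than in 99.2% of the 13780 genes tested, whose median SD was 0.454. Without pigs 38, 39 and 46 the SD was 1.52, larger than in 99.3% of genes. These shares are over genes of all levels, and genes of a like level were not compared apart. The spread was wide inside each group, with an SD of 1.23 and 1.58 in untreated and treated normal-sized piglets and of 0.955 and 1.54 in untreated and treated IUGR piglets.

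The comparison of IUGR with normal-sized piglets addresses whether growth restriction alters liver transcripts of innate immunity. In untreated piglets the mean MBL2 level was 3.06 ± 2.18 CPM (SD, n = 10) for IUGR and 8.55 ± 4.8 (SD, n = 11) for normal-sized piglets. The log2 fold change was -1.48 (standard error 0.55, 95% interval -2.58 to -0.37), which did not pass the threshold of 0.05 (adjusted p = 0.238, unadjusted p = 0.00956, edgeR). None of the 6 members passed, beside 6 of 13780 genes (0.0435%) in either direction, and 1728 genes (12.5%) had an unadjusted p under 0.05. MBL2 is among the genes that the study shows from these livers, so its test is not independent evidence of its direction.

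In treated piglets the mean MBL2 level was 4.67 ± 4.92 CPM (SD, n = 13) for IUGR and 10.7 ± 9.38 (SD, n = 12) for normal-sized piglets. This was a log2 difference of -1.20 with a standard error of 0.49 (edgeR adjusted p = 0.245), and 1 of 13780 genes (0.00726%) passed, which was no member. Over both treatments the log2 fold change was -1.34 (standard error 0.37, 95% interval -2.08 to -0.60, adjusted p = 0.0745, edgeR). In that contrast edgeR called 0 of 13780 genes (0%), with 3138 genes at an unadjusted p under 0.05, and limma voom called 55 genes (0.399%), where MBL2 had an adjusted p of 0.115.

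DESeq2, the tool named in the study's methods, placed MBL2 below the threshold in 2 of these contrasts. With the untreated groups alone DESeq2 put IUGR piglets at -1.49 on the log2 scale (standard error 0.40, adjusted p = 0.0296) and called 238 of 14903 genes (1.6%). With all 4 groups in the fit and the mean over treatments it was -1.35 (standard error 0.36, adjusted p = 0.0318), beside 247 of 14846 genes called (1.66%). The calls were kept in 14 of 21 and in 41 of 46 omissions of a single library. Leaving out 1 of the 21 untreated libraries at a time ended the DESeq2 call 7 times, for pigs 20, 30, 34 and 55 of the normal-sized and pigs 12, 21 and 38 of the IUGR group, with log2 fold changes of -1.51 to -1.38 and adjusted p up to 0.0834. The unadjusted DESeq2 p of MBL2 in those 7 fits ran from 0.000279 (pig 34) to 0.00186 (pig 38). Without pig 9 the call was kept at an unadjusted p of 0.00086, with 327 genes called, against 58 without pig 34. The adjusted p also rests on the p-values of all other genes, and between 56 and 434 genes were called in these fits. The mean over treatments lost its call without pig 1, 20, 30, 38 or 46, with adjusted p up to 0.0742. Without pig 38 MBL2 was at -1.32 (DESeq2 unadjusted p = 4e-04), with 20 genes called. Without pig 36 it had the same value and unadjusted p, with 152 genes called, and kept the call (DESeq2 adjusted p = 0.0476). Without pigs 38, 39 and 46 together, which was added as a setting once the values were known, both DESeq2 calls ended (adjusted p = 0.072 for the untreated groups, where only pig 38 is left out, and 0.0909 for the mean).

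The energy paste was tested in each size of piglet. Treated against untreated, the log2 fold change of MBL2 was 0.32 (standard error 0.50, 95% interval -0.69 to 1.33, adjusted p = 0.921, edgeR) in normal-sized and 0.61 (standard error 0.53, 95% interval -0.45 to 1.66, adjusted p = 1) in IUGR piglets. The difference of the IUGR effect between treated and untreated piglets was 0.28 (standard error 0.72, adjusted p = 0.978). In normal-sized piglets edgeR called 0 of 13780 genes for the paste (0%), with 1176 at an unadjusted p under 0.05. DESeq2 with all 4 groups called 31 of 12704 genes there (0.244%). In IUGR piglets edgeR called 4 of 13780 genes (0.029%). For the difference of the effects edgeR called 0 (0%), with 918 at an unadjusted p under 0.05, and DESeq2 called 8 of 18417 genes (0.0434%). No member was among the genes called by edgeR in any of these contrasts.

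Across the treatments, MBL2 in treated IUGR against untreated normal-sized piglets stood at -0.87 on the log2 scale (standard error 0.50, edgeR adjusted p = 0.37), where 54 of 13780 genes passed (0.392%) and no member did. Untreated IUGR against treated normal-sized piglets gave -1.80 (standard error 0.54, adjusted p = 0.392), where 4 genes passed (0.029%) and no member did. These comparisons share groups with those above and are given for their own values.

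**Figure D2:**
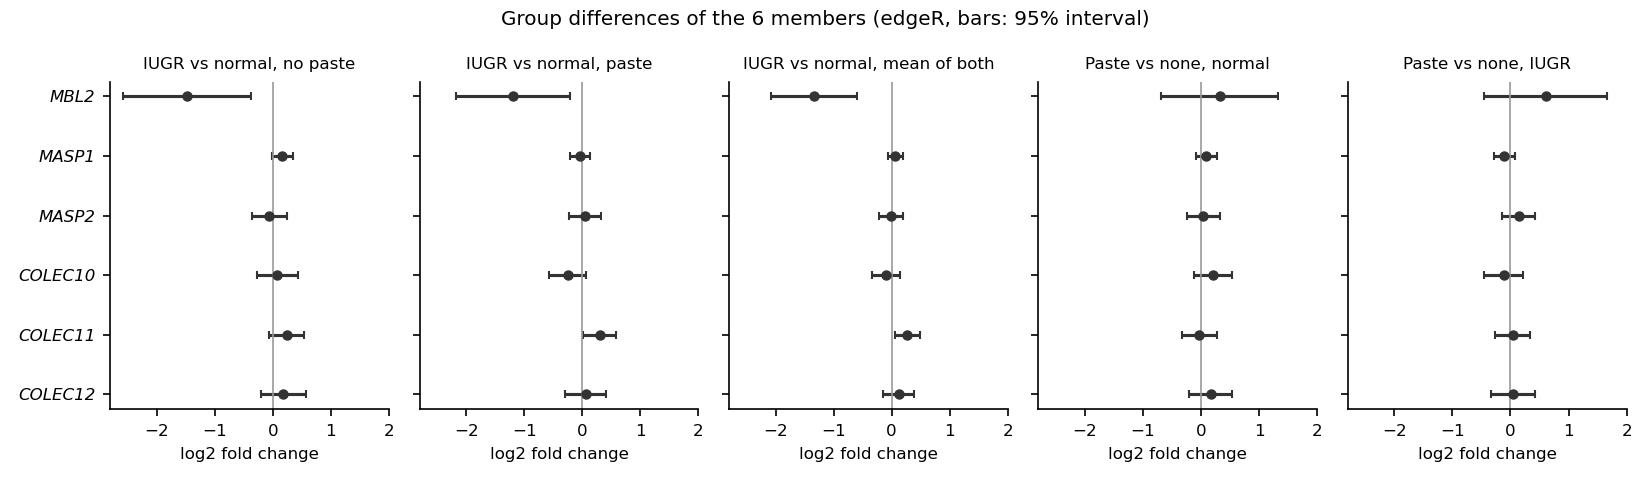
Log2 fold change of each gene in 5 contrasts from edgeR (points) with 95% intervals (bars). MBL2 lies at -1.48, -1.20 and -1.34 for IUGR against normal-sized piglets with wide intervals, while the other genes lie within 0.30 of 0 with narrow ones.

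The gene whose level ran closest to MBL2 over the livers was IGF1, which encodes the growth factor that the liver releases under growth hormone. Pearson's r of log2 CPM was 0.771 over 43 livers and 0.679 over all 46, and Spearman's rho over 43 was 0.798. With the group means removed r was 0.759 over 43 livers. Within groups, pigs 38, 39 and 46 included, it was 0.78 and 0.783 in untreated and treated normal-sized piglets and 0.485 and 0.53 in untreated and treated IUGR piglets. Pig 1 held the highest level of both genes, 32.3 CPM of MBL2 and 44.9 CPM of IGF1. Pigs 38 and 46, among the 3 livers that stood apart, had the lowest IGF1 of their groups at 0.816 and 1.69 CPM. The log2 fold change of IGF1 itself was -0.68 in untreated piglets (standard error 0.44, adjusted p = 0.535, edgeR). The study reported lower IGF1 in IUGR piglets, which was not significant by sequencing after adjustment but was significant by qPCR.

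DZIP1, a protein of the ciliary base, followed with an r of 0.66 over 43 livers. PON1, a paraoxonase that the liver secretes onto high-density lipoprotein, had an r of 0.656, GALNTL6, a glycosyltransferase-like gene, 0.654, and RASSF6, a Ras association domain gene, 0.652. LOC110258312 and LOC110258309, genes known only by their identifiers, reached 0.633 and 0.62 over all 46 livers. LOC110258309 was 1 of the 6 genes past the threshold in untreated piglets, where it fell by 1.80 on the log2 scale in IUGR piglets (standard error 0.38, edgeR adjusted p = 0.0496). In treated piglets it was at -0.45 (standard error 0.33, adjusted p = 0.477), and the interaction was 1.35 (standard error 0.50, adjusted p = 0.55).

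The opposite pattern was seen for IGFBP1, which encodes a binding protein of IGF1 that the liver makes in fasting, with an r of -0.635 over 46 and -0.637 over 43 livers. Its r was negative in each group, from -0.85 in untreated IUGR to -0.415 in treated IUGR piglets. Over 43 livers NCSTN, a subunit of gamma-secretase, stood at -0.655, LOC100625149 at -0.649 and GPSM1, a G protein regulator, at -0.645. These genes were ranked among 13780 by their likeness to MBL2, so the values are a description.

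**Figure D3:**
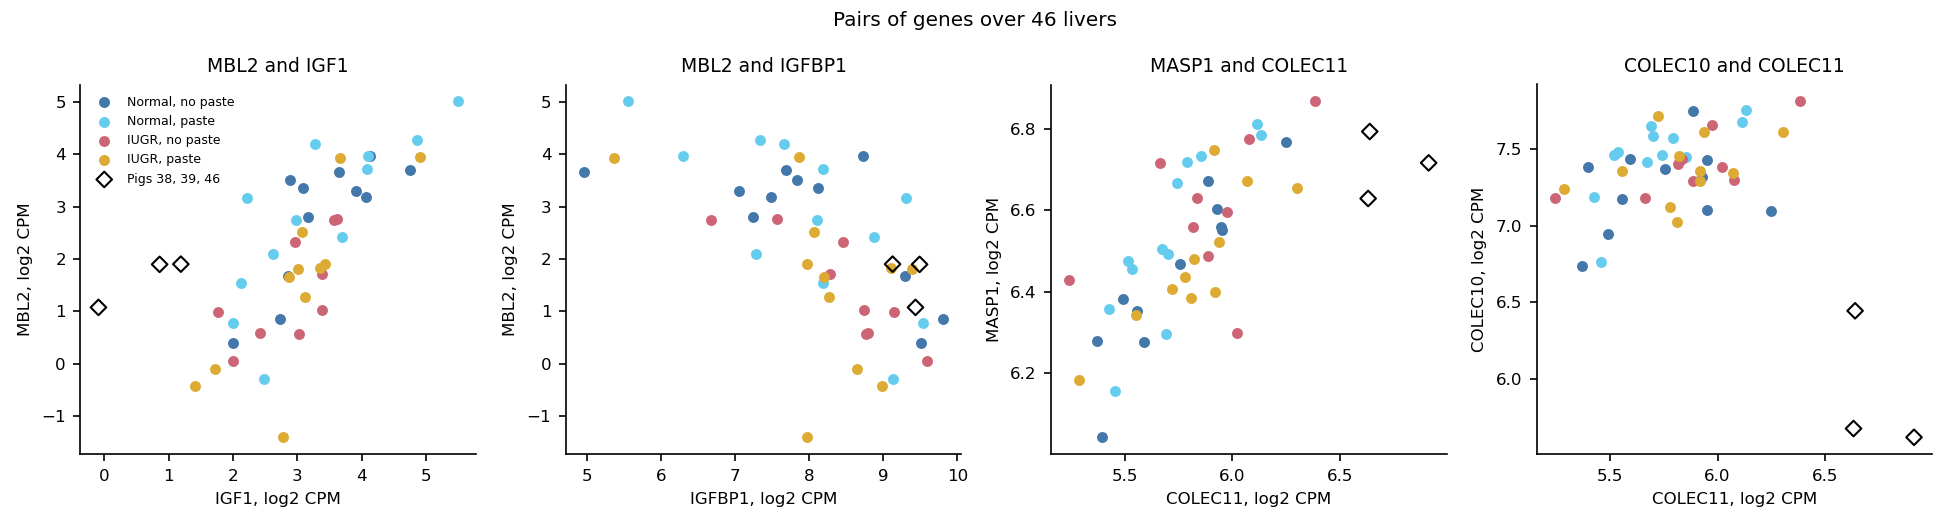
Log2 CPM of 4 gene pairs in 46 livers, coloured by labelled group (open diamonds: pigs 38, 39 and 46). MBL2 rises with IGF1 (r = 0.771 over 43 livers) and falls with IGFBP1 (-0.637), MASP1 rises with COLEC11 (0.742), and the diamonds turn the slope of COLEC10 on COLEC11.

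COLEC10 (gene ID 100622782) and COLEC11 (gene ID 100736753) encode the collectins CL-L1 and CL-K1, which join into mixed molecules in plasma and carry the same proteases as MBL2. COLEC10 lies on chromosome 4 from 19692990 to 20143740 and COLEC11 on chromosome 3 from 131226941 to 131254555. COLEC10 ran from 107 to 216 CPM (median 159) in untreated and from 108 to 217 (median 178) in treated normal-sized piglets. In IUGR piglets it ran from 87 to 225 CPM (median 162) without and from 48.9 to 210 (median 163) with treatment. The 3 livers that stood apart were the lowest of all, with 87 CPM in pig 38, 50.9 in pig 39 and 48.9 in pig 46, against 107 to 225 in the other 43. In bulk tissue, fewer cells of a type and less RNA per cell cannot be told apart.

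COLEC11 ran from 41.3 to 76 CPM (median 54) in untreated and from 42.8 to 70.1 (median 51.7) in treated normal-sized piglets. It ran from 37.7 to 99.6 CPM (median 60.9) in untreated and from 38.9 to 120 (median 60.3) in treated IUGR piglets. Here the same 3 livers were the highest, with 99.6, 99.1 and 120 CPM in pigs 38, 39 and 46, against 37.7 to 83.4 in the other 43. COLEC10 was thus low and COLEC11 high in these libraries.

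The size of the COLEC11 difference depended on the 3 livers that stood apart. Over both treatments the log2 fold change of IUGR against normal-sized piglets was 0.27 (standard error 0.10, 95% interval 0.06 to 0.48, adjusted p = 0.137, edgeR). It was 0.24 (standard error 0.15, adjusted p = 0.538) in untreated and 0.30 (standard error 0.14, adjusted p = 0.275) in treated piglets. Without pigs 38, 39 and 46 these values were 0.12 (standard error 0.08) over both treatments, 0.14 (standard error 0.12) in untreated and 0.11 (standard error 0.11) in treated piglets, with edgeR adjusted p of 0.563, 0.571 and 0.949. The group means were 54.2 ± 10.7 CPM (SD, n = 11) and 63.8 ± 17.2 (SD, n = 10) in untreated normal-sized and IUGR piglets, and the IUGR mean was 59.9 ± 12.5 (SD, n = 9) without pig 38. COLEC10 had log2 fold changes of 0.07 (standard error 0.17) in untreated and -0.25 (standard error 0.16, adjusted p = 0.417) in treated piglets. Over both treatments it was -0.09 (standard error 0.12) with all livers and 0.03 without pigs 38, 39 and 46.

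COLEC12 (gene ID 102166764) encodes a collectin of the cell membrane, a scavenger receptor rather than a plasma lectin. It lies on chromosome 6 from 105808157 to 106000197 and rested on 25 to 118 counts per library. The level was 3.55 ± 0.943 CPM (SD, n = 11) and 4.00 ± 1.42 (SD, n = 12) in untreated and treated normal-sized piglets, and 4.03 ± 1.19 (SD, n = 10) and 4.17 ± 0.919 (SD, n = 13) in untreated and treated IUGR piglets. The groups overlapped throughout. The log2 fold change of IUGR against normal-sized piglets was 0.18 (standard error 0.19, 95% interval -0.21 to 0.57) untreated and 0.06 (standard error 0.18, 95% interval -0.30 to 0.41) treated.

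MASP1 (gene ID 100152125) encodes the protease that activates MASP-2 and, by splicing, further products that a count per gene cannot separate. It lies on chromosome 13 from 124938469 to 125028440. MASP1 was among the steadiest genes of these livers, with a mean level above that of 89.9% of genes. It ran from 65.8 CPM in pig 48 to 117 in pig 26, its SD on the log2 scale was 0.193, and 2.61% of genes had a smaller one over 46 livers (13.1% over 43). The group means were 88.2 ± 12.5 CPM (SD, n = 11) and 93.7 ± 13.2 (SD, n = 12) in untreated and treated normal-sized piglets, and 98.6 ± 12 (SD, n = 10) and 91.3 ± 10.6 (SD, n = 13) in untreated and treated IUGR piglets. Its log2 fold change for IUGR was 0.16 (standard error 0.09, 95% interval -0.02 to 0.35) in untreated and -0.04 (standard error 0.08, 95% interval -0.21 to 0.13) in treated piglets.

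MASP2 (gene ID 100302537) encodes the protease that cleaves C4 and C2, together with a short splice product without the protease domain. It lies on chromosome 6 from 71224637 to 71243041. MASP2 ran from 67.6 CPM in pig 22 to 178 in pig 29, with group medians of 119 to 124 CPM. Its SD on the log2 scale was 0.332, between those of MASP1 and MBL2. The log2 fold change for IUGR was -0.06 (standard error 0.15, 95% interval -0.36 to 0.24) in untreated and 0.05 (standard error 0.14, 95% interval -0.23 to 0.32) in treated piglets.

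No member other than MBL2 had a log2 fold change beyond 0.32 in size in any contrast of the edgeR fit. For the paste, the values of the other 5 genes lay between -0.03 and 0.20 in normal-sized and between -0.12 and 0.14 in IUGR piglets. Levels are not compared between genes, since counts are not scaled to transcript length.

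Single livers were low or high in several of these genes at once. Pig 22, normal-sized and treated, had the lowest MASP2 (67.6 CPM) and COLEC12 (1.66 CPM) of all livers and the lowest MASP1 and COLEC10 of its group (71.2 and 108 CPM). Pig 26, IUGR and untreated, had the highest MASP1 and COLEC10 of all livers (117 and 225 CPM) and, outside the 3 that stood apart, the highest COLEC11 (83.4 CPM). Pig 48, normal-sized and untreated, had the lowest MASP1 of all (65.8 CPM) and the lowest MBL2 of its group (1.18 CPM). Pig 29, IUGR and treated, joined the highest MASP2 (178 CPM) to the lowest MASP1 and COLEC11 of its group (72.5 and 38.9 CPM).

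Correlation between the 6 genes was computed for all 15 pairs of log2 CPM, with 100000 permutations and Benjamini-Hochberg adjustment over the 15. Because 3 livers stand apart as a cluster, the values over 43 livers are given before those over 46. Over 43 livers all 15 coefficients were positive, from 0.173 to 0.742 (median 0.293), and 5 passed the threshold. The closest pair was MASP1 with COLEC11, a protease and a lectin that bind each other in plasma, with r = 0.742 and rho = 0.728 (permutation p = 1e-05 for each, the smallest that 100000 permutations give, adjusted p = 0.00015). Without the 2 livers farthest from the median r was 0.697. It was 0.914 and 0.84 in untreated and treated normal-sized and 0.566 and 0.788 in untreated and treated IUGR piglets, pigs 38, 39 and 46 included, and 0.7 over all 46. Among all genes tested COLEC11 ranked 2nd in likeness to MASP1 over 43 livers. The other pairs that passed stood lower. In likeness to COLEC10, COLEC12 had rank 58 and COLEC11 rank 200. MASP1 had rank 166 in likeness to MBL2, and COLEC10 had rank 564 in likeness to MASP1. How often pairs of other genes pass the threshold was not tested.

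COLEC10 with COLEC12 had r = 0.543 and rho = 0.425 over 43 livers (permutation p adjusted 0.0015 and 0.0246), and r was 0.359 without the 2 farthest livers. MBL2 with MASP1 had r = 0.451 and rho = 0.444 (adjusted permutation p = 0.0096 and 0.0242), 0.385 without the 2 farthest livers and 0.572 with the group means removed. MASP1 with COLEC10 had r = 0.43 and rho = 0.379 (adjusted permutation p = 0.0118 and 0.0432). MASP2 passed the threshold by r with none of the other 5 genes over 43 or 46 livers, with r between 0.187 and 0.293 over 43. By rho with the group means removed over 46 livers, MASP2 with COLEC11 passed (rho = 0.401, adjusted permutation p = 0.0159). In that setting MBL2 passed with COLEC11 (rho = 0.45, adjusted permutation p = 0.00735) and with COLEC12 (rho = 0.411, adjusted permutation p = 0.014). MBL2 with COLEC11 also passed by r with the group means removed over 43 livers (r = 0.455, adjusted permutation p = 0.00639).

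COLEC10 with COLEC11 was the pair that turned with the 3 livers. Over 43 livers r was 0.464 and rho 0.367 (adjusted permutation p = 0.008 and 0.0432). Over all 46 r was -0.374 (adjusted permutation p = 0.0465) while rho was 0.117, and without the 2 farthest livers r was 0.146, so the negative value rests on those livers. In treated IUGR piglets, which hold pigs 39 and 46, r was -0.737, and in treated normal-sized piglets it was 0.701. Over all 46 livers, 4 of the 15 pairs passed by r.

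**Figure D4:**
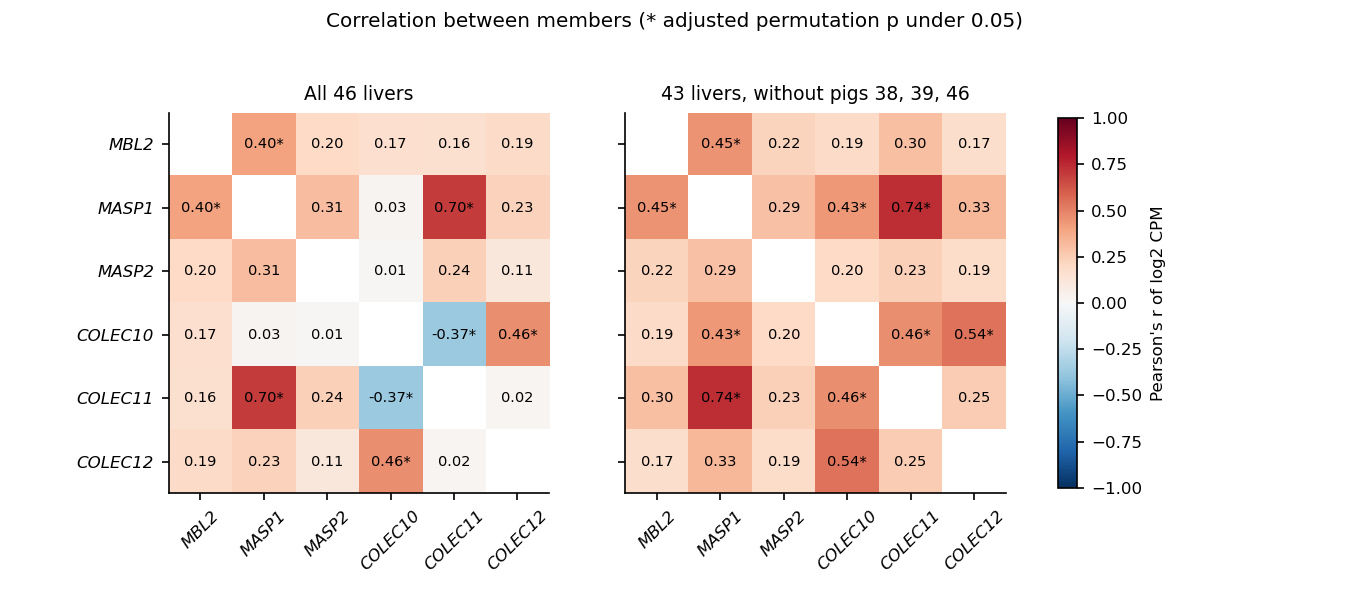
Pearson's r of log2 CPM for each pair of genes over all 46 livers (left) and over 43 (right), with a star where the adjusted permutation p is under 0.05. MASP1 with COLEC11 has the highest r in both (0.7 and 0.742), and COLEC10 with COLEC11 turns from -0.374 to 0.464.

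The genes most like each of the others over 43 livers are given as a description. For MASP1 they were IGFBP3, which carries IGF1 in plasma, at r = 0.784, COLEC11 at 0.742 and FGFR1, a fibroblast growth factor receptor, at 0.733. For COLEC11 they were IGFBP7, an extracellular binding protein, at 0.857, ISLR, a matrix protein of mesenchymal cells, at 0.763, and PDGFRB, the platelet-derived growth factor receptor of stellate cells and pericytes, at 0.75. COLEC10 ran with NID2, a basement membrane nidogen, at 0.709, ADAMTS12, a matrix protease, at 0.704, and FRMD3 at 0.675, and NID2 was at 0.022 over all 46 livers. COLEC12 ran with the matrix genes OGN at 0.746, SVEP1 at 0.72 and FSTL1 at 0.704. MASP2 ran with SBNO2, a transcriptional regulator of inflammation, at 0.686 (0.479 over all 46 livers), SEMA4D, a semaphorin of immune cells, at 0.671, and BCL3, an NF-kappa-B partner, at 0.663.

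The members were set against marker scores, the mean standardized log2 CPM of the tested markers of 8 cell types, which gives 48 relations. Over 43 livers 7 passed the threshold after adjustment over the 48, and 5 of these were with the stellate cell and fibroblast score of 10 markers. That score had r = 0.717 with MASP1 (rho = 0.688), 0.693 with COLEC11 (rho = 0.756), 0.584 with COLEC10 (rho = 0.481), 0.582 with COLEC12 (rho = 0.570) and 0.464 with MBL2 (rho = 0.480), with adjusted permutation p of 0.00024 to 0.0172 for r. Without the 2 farthest livers r was 0.664, 0.669, 0.433, 0.505 and 0.422. With MASP2 r was 0.312 (adjusted permutation p = 0.221). PDGFRB is 1 of the 10 markers of the score.

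MBL2 ran against the Kupffer cell and macrophage score of 7 markers, with r = -0.405 over 43 livers (adjusted permutation p = 0.0485) and rho = -0.389 (adjusted permutation p = 0.0689). MASP1 had r = 0.424 with the erythroid score of 8 markers (adjusted permutation p = 0.0382, rho = 0.404, adjusted permutation p = 0.0642). No member passed with the hepatocyte score over 43 livers, where r lay between -0.302 and 0.278. Over all 46 livers COLEC10 did not pass with the stellate cell score (r = 0.323, adjusted permutation p = 0.123), and COLEC11 passed with the hepatocyte score (r = 0.419). By rho over 46 livers COLEC10 passed with the stellate cell score (rho = 0.421) and, negatively, with the hepatocyte score (rho = -0.42, adjusted permutation p = 0.0262 for each). Whether cell makeup has a part in these relations was not tested.

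**Figure D5:**
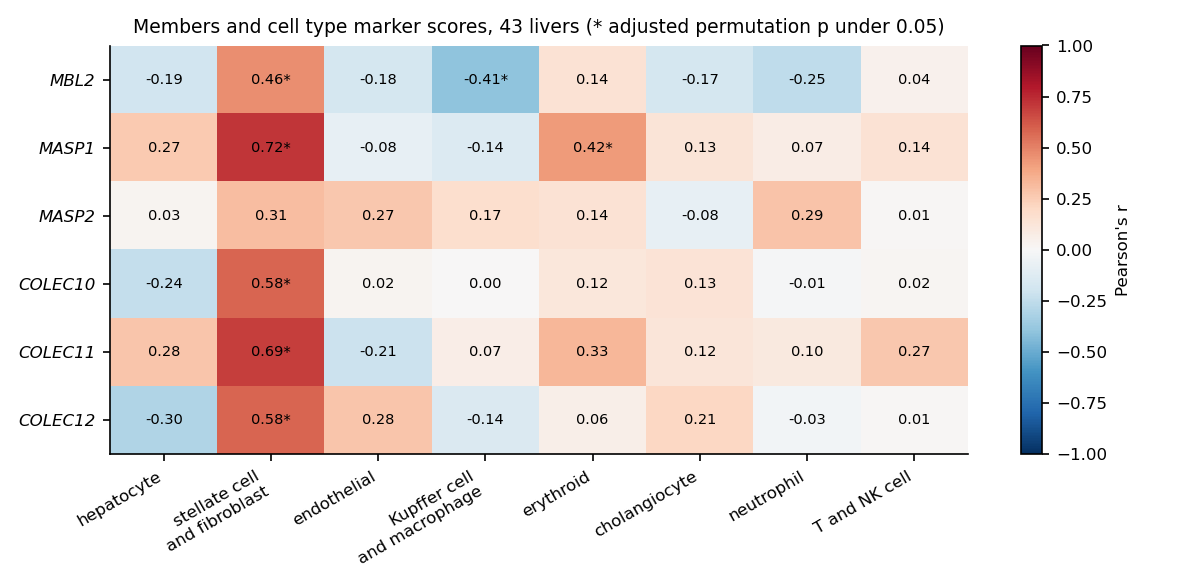
Pearson's r between log2 CPM of each gene and the score of each cell type's markers over 43 livers, with a star where the permutation p adjusted over 48 relations is under 0.05. The stellate cell and fibroblast column is starred for every gene but MASP2 (0.312), and MBL2 is negative with the Kupffer cell score (-0.405).

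The summed level of the markers by group stands beside the group differences. The stellate cell and fibroblast sum ran from 633 to 1320 CPM in untreated normal-sized and from 748 to 1490 in untreated IUGR piglets, and its 10 genes had a median log2 fold change of 0.09, beside 0.01 for all genes. The Kupffer cell sum ran from 827 to 1680 and from 909 to 1360 CPM in the same groups. All 8 erythroid markers had positive log2 fold changes in untreated IUGR piglets, with a median of 0.95. In edgeR 0 of the 8 passed the threshold, with 5 at an unadjusted p under 0.05, beside 12.5% of all genes. In treated piglets 5 of the 8 were positive, with a median of 0.16. There 1 of the 8 had an unadjusted p under 0.05, beside 16.7% of all genes. Their sum ran from 152 to 2220 CPM in untreated normal-sized and from 649 to 2670 in untreated IUGR piglets. MBL2 had r = 0.145 with the erythroid score over 43 livers (adjusted permutation p = 0.611), and the part of red cell precursors in the group differences was not tested. In pigs 38, 39 and 46 the erythroid sum was 1290 to 3070 CPM, against 152 to 2530 in the other 43.

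The rest of the pathway was read from lists of genes. In untreated piglets edgeR called none of the 5 tested recognition molecules outside the members, with 0 at an unadjusted p under 0.05. Pigs carry a second mannose-binding lectin gene, MBL1, which was at 65.1 ± 14.1 CPM (SD, n = 10) in IUGR and 68.4 ± 16.1 (SD, n = 11) in normal-sized untreated piglets. Its log2 fold change was -0.07 (standard error 0.13, 95% interval -0.33 to 0.18). The difference between MBL1 and MBL2 was not tested. FCN1 and FCN2, the ficolins that also carry the proteases, had values of 0.07 (standard error 0.32) and 0.06 (standard error 0.22).

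Of 12 further complement components, edgeR called 0 in untreated piglets. In this list 4 had a lower level at an unadjusted p under 0.05, which 12.5% of all genes had in either direction. C6, a component of the membrane attack complex, was at 130 ± 57.1 CPM (SD, n = 10) in IUGR and 277 ± 121 (SD, n = 11) in normal-sized piglets, which is -1.09 on the log2 scale (standard error 0.33, edgeR adjusted p = 0.124). C2, which MASP-2 cleaves, was at 155 ± 71.6 and 257 ± 61.9 CPM in the same groups, a value of -0.72 (standard error 0.22, adjusted p = 0.129). C9, which forms the pore, stood at -0.36 (standard error 0.15, adjusted p = 0.283). The median of the list was -0.11, beside 0.01 for all genes. In treated piglets C6 and C2 had values of -0.21 (standard error 0.29) and 0.17 (standard error 0.20), and the difference between treated and untreated piglets in the IUGR effect was 0.87 for C6 (adjusted p = 0.757) and 0.89 for C2 (adjusted p = 0.442).

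C1 is the complex that starts the classical pathway. Of its 5 genes edgeR called 0 in untreated piglets, with 0 at an unadjusted p under 0.05, beside 12.5% of all genes. C1R and C1S, the proteases of C1, had values of -0.45 and -0.44 (standard error 0.27 for each), and C1QC, a chain of its recognition subunit, 0.19 (standard error 0.18). In treated piglets edgeR also called 0 of the 5. There 3 were higher in IUGR piglets at an unadjusted p under 0.05, beside 16.7% of all genes in either direction. The median of the 5 was 0.36, beside 0.02 for all genes. Of 11 inhibitors and regulators edgeR called 0 in untreated piglets, with 0 at an unadjusted p under 0.05. C4BPB, a chain of C4b-binding protein, stood at -0.21 (standard error 0.15) and CFP, properdin, at 0.22 (standard error 0.23). Of 5 collectin receptors edgeR called 0, and 1 had an unadjusted p under 0.05, beside 12.5% of all genes. This was LRP1, which takes up collectin-bound material, at 0.53 on the log2 scale (standard error 0.18, edgeR adjusted p = 0.169). Pig 38 had 1730 CPM of LRP1, and the next untreated IUGR piglet 968. CALR, calreticulin, stood at -0.22 (standard error 0.14) and CR1, complement receptor 1, at -0.69 (standard error 0.59). The lists were read with edgeR alone.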

How the data were processed

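Liver RNA of 46 piglets was sequenced as paired-end reads of 100 bp. The deposited values are estimated counts per gene, which the authors made from clean reads mapped to Sscrofa11.1 with Bowtie2, while the sources used here do not give the counting program. No scaling for depth or length is seen in them, since library totals differ and 85.9% of values are whole. Each column was given the group of the piglet whose number heads it, and no column was left without a sample.

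Counts were rounded and analysed with edgeR 4.0.16 in R 4.3.3 (TMM scaling, filterByExpr with a minimum count of 10, robust quasi-likelihood F test, Benjamini-Hochberg adjustment over 13780 genes, threshold 0.05). All 46 libraries were in 1 fit with a mean for each of 4 groups, and standard errors were derived from the F statistic. All 6 members passed the filter. Correlations used log2 CPM with a prior count of 2, and their p-values come from 100000 two-sided permutations. The smallest chi-square per gene among 1035 pairs of libraries was 21.4, far above sampling noise, so none was counted as a repeat. CPM hold counting error as well as the spread between piglets, and p-values take each piglet as a separate sample.

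Alternatives were DESeq2 1.42.0 on all groups or the groups compared, its size factors, edgeR on the groups compared, no filter, limma 3.58.1 voom with sample weights, a prior count of 0.5, Spearman's rho, removal of group means, and leaving out each library in turn or pigs 38, 39 and 46. DESeq2 with libraries left out was added after the data were seen. The members, gene lists and markers were chosen with earlier results of these data known. Genes named are the members, of each list up to 3 genes with the smallest p in untreated piglets, and the genes with the highest or lowest r with a member. The scripts were tested on simulated data. FCN3, CR2, ITGAX, SERPINA3 and KRT7 were not analysed here, CRP, C4BPA and TF were left out because the table holds each symbol 2 times, and CD3D did not pass the filter. A gene that the naming rule takes from the regulators is not reported here.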

Additional observations from a re-analysis of the deposited data

Results flagged for a closer look

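Of 52 genes named or listed, 9 had a library in the untreated IUGR group (n = 10) whose gap to the next library was a larger share of the group's range than Dixon's 95% limit allows, and chance alone gives such a gap in about 1 in 20 groups. None of the 6 members was among those 9. Only the untreated IUGR group was put to this rule, so pigs 39 and 46 were not covered. In pig 38, which stood apart over all genes, the highest levels of the group were seen for C1QC (373 CPM, next 266), IGFBP3 (131 CPM, next 84.2), LRP1 (1730 CPM, next 968), NCSTN (118 CPM, next 94.5), PDGFRB (133 CPM, next 81.0) and SBNO2 (49.8 CPM, next 25.9), and the lowest for FSTL1 (49.9 CPM, next 103). In pig 36 C2 was the highest at 338 CPM (next 172), and in pig 5 SVEP1 was the highest at 13.5 CPM (next 9.02).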

How the results depend on the processing

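Of the 6 members, 1 (MBL2) passed the threshold under DESeq2 with the untreated groups alone (-1.49) and under DESeq2 with all 4 groups for the mean over treatments (-1.35), against 0 in edgeR. With 1 library left out at a time they ran from -1.68 to -1.36 and from -1.50 to -1.20 in DESeq2, and from -1.68 to -1.35 and -1.49 to -1.19 in edgeR, where none passed. The interaction of MBL2 was -0.14 under limma voom and ran from -0.03 to 0.57 with 1 library left out. Over 46 livers 11 of 48 relations with cell type scores passed by Spearman's rho, against 7 by r. The cause of these differences was not tested.

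The other reversals were of values near 0, none past the threshold. COLEC10 turned to 0.03 (mean over treatments) and 0.12 (treated IUGR against untreated normal-sized) without pigs 38, 39 and 46 in edgeR and DESeq2, to 0.03 and 0.14 under voom, and to 0.04 in the second with 1 library left out. COLEC11 turned to -0.06 (paste in IUGR) without the 3 pigs and under voom and to -0.04 and -0.08 (interaction), and for the paste in normal-sized piglets to 0.02 under voom. COLEC12 in untreated IUGR against treated normal-sized piglets was -0.01 with DESeq2's size factors or DESeq2 and 0 with DESeq2 on the groups compared. MASP2 was -0.10 in treated piglets and -0.01 in the interaction under voom. With 1 library left out MASP2 ran from -0.01 to 0.11 (treated), -0.04 to 0.02 (mean) and -0.03 to 0.10 (paste, normal-sized), COLEC12 from -0.02 to 0.13 (treated), -0.07 to 0.08 (untreated IUGR against treated normal-sized) and -0.02 to 0.12 (paste, IUGR), COLEC11 from -0.05 to 0.04 (paste, normal-sized), -0.06 to 0.13 (paste, IUGR) and -0.04 to 0.15 (interaction), and COLEC10 from -0.10 to 0.04 (treated IUGR against untreated normal-sized).

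Among pairs, COLEC10 with COLEC11 was -0.374 over 46 livers, 0.117 by rho, 0.464 without the 3 pigs, and with group means removed (-0.34) or DESeq2's size factors (-0.366) it missed the threshold. MASP1 with COLEC10 was -0.006 and COLEC11 with COLEC12 -0.039 with group means removed. Scaling by DESeq2's size factors shifted the all-gene median by -0.017 at most. Low counts of MBL2 and COLEC12 limit single values. No paired analysis was possible. Each pig number belongs to 1 piglet, and the labels give no litter by which piglets of the same sow could be matched.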

Other observations

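Hepatocyte genes outside the complement system were listed because the liver makes both. Of 7 acute phase genes 6 had a negative log2 fold change in untreated IUGR piglets, with a median of -0.35, beside 0.01 for all genes. In edgeR 0 passed the threshold and 2 had an unadjusted p under 0.05, which 12.5% of all genes had in that contrast. LBP, which presents lipopolysaccharide to immune cells, was at 389 ± 135 CPM (SD, n = 10) in IUGR and 510 ± 130 (SD, n = 11) in normal-sized piglets, which is -0.39 on the log2 scale (standard error 0.17, edgeR adjusted p = 0.319). FGA and FGB, chains of fibrinogen, had values of -0.35 (standard error 0.17) and -0.42 (standard error 0.21). In treated piglets the median of the list was -0.03.

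Of 12 hepatocyte transcription factors edgeR called 0 in untreated piglets, and 3 were higher at an unadjusted p under 0.05, beside 12.5% of all genes in either direction. CEBPB, an activator of acute phase genes, was at 56.6 ± 24.2 CPM (SD, n = 10) in IUGR and 33.2 ± 12.4 (SD, n = 11) in normal-sized piglets, a value of 0.77 (standard error 0.27, adjusted p = 0.211). PPARA, a regulator of fatty acid oxidation, stood at 0.60 (standard error 0.27, adjusted p = 0.348) and FOXA2, a pioneer factor of liver genes, at 0.45 (standard error 0.17, adjusted p = 0.267). Pig 38 had the highest level of the untreated IUGR group for CEBPB (105 CPM, next 80.8) and PPARA (36.6 CPM, next 26.2).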
